A study of Mus musculus with 4 samples.

Results

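The subject is the baseline transcriptome of control C2C12 myotubes: the 2 libraries made from cells that had received a scrambled siRNA. C2C12 is an immortal mouse myoblast line whose cells leave the cell cycle, align and fuse into multinucleate myotubes when serum is lowered. The labels call the cells myoblasts. They had been grown on gelatin, transfected by Lipofectamine with siRNA at 30 nM, and then kept in low-serum medium (horse serum) to differentiate for 48 h, per the labels' protocols, and total RNA was sequenced from TruSeq libraries. The study's other libraries received an siRNA against Mef2a and are not used here. Values were FPKM: the number of fragments assigned to a transcript, divided by its length in kilobases and scaled for the number of fragments sequenced. They were summed over the listed transcripts of each gene symbol, and a gene was kept as expressed where its sum reached 1 FPKM in both libraries. Of 13824 symbols listed, 11654 (84.3%) met this rule. Since the measured levels themselves chose the genes, everything below describes these 2 libraries, and no test was made. The libraries are called replicate 1 and replicate 2, and where 2 values follow a gene they stand in that order. Nothing in the labels says that they came from separate cultures, so the spread between them may be technical.

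As background, skeletal muscle builds its contractile machinery from gene families in which embryonic, slow, fast and cardiac copies replace each other during development. Myoblasts start this programme under the basic helix-loop-helix factors MyoD, Myf5 and myogenin, which pair with E proteins and act together with MEF2 factors. Many of the same genes also change exons during differentiation, so that 1 gene yields a form for proliferating cells and another for muscle.

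Of the 11654 expressed genes, 119 had only short or small RNA transcripts, for which FPKM is unreliable. They were left out of ranks, and 11535 genes remained. The microRNA gene Mir5105 alone held 99.3% and 99.0% of all FPKM of the libraries, so totals were taken over the ranked genes. The median ranked gene was at 11.4 FPKM in replicate 1 and 12.2 FPKM in replicate 2. Across ranked genes Pearson's r of log2 FPKM between the libraries was 0.992, where genes are not independent replicates, and 98% of genes lay within 1.5-fold. Absolute depth is unknown, and the commonest ratio among low values, shared by 16 of 537 genes, put the depth of replicate 2 at 1.05 times that of replicate 1. At the edge of the rule, Gm11946 (1.10 and 1.00 FPKM), RP23-433F5.1 (1.31 and 1.00) and Stk39 (1.00 and 1.08) were just inside. Tnfrsf4 (1.14 and 0.99995 FPKM), Dtl (0.9996 and 1.15) and Cox7a1 (2.49 and 0.999) were just outside.

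The given markers of differentiating muscle were all expressed. Myog (ENSMUSG00000026459, chromosome 1, 134289989 to 134292548, plus strand, GRCm38/mm10), which encodes myogenin, was at 126 and 138 FPKM, rank 625 of 11535 by mean. Myh3 (ENSMUSG00000020908, chromosome 11, 67078300 to 67102291, plus strand), the embryonic myosin heavy chain, was at 38.3 and 44.8 FPKM, and Myl4 (ENSMUSG00000061086, chromosome 11, 104550663 to 104595753, plus strand), the embryonic and atrial essential light chain, at 267 and 288 FPKM (mean 278 ± 15, SD, n = 2). The imprinted long non-coding RNA H19 (ENSMUSG00000000031, chromosome 7, 142575529 to 142578143, minus strand) was at 665 and 792 FPKM (mean 729 ± 89.4). Ckm (ENSMUSG00000030399, chromosome 7, 19404776 to 19422841, plus strand), the muscle creatine kinase, was at 41.1 and 44.6 FPKM (mean 42.8 ± 2.44). In each of the 5, the libraries differed by less than 1.5-fold. The markers thus spanned the range from rank 136 for H19 to rank 2103 for Myh3. Of a wider list of 20 myotube markers, 18 were listed and 17 expressed, where 84.3% of all listed symbols were. The median of the 17 was 181 FPKM, against 11.8 FPKM over all ranked genes. Counts of expressed genes in the lists below stand beside the same 84.3%. Mef2c was listed under 1 FPKM, and Acta1 and Cdh15 are not analysed here. In bulk RNA, fewer cells of a type and less RNA per cell cannot be told apart, and unfused cells may contribute to every value.

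**Figure D1:**
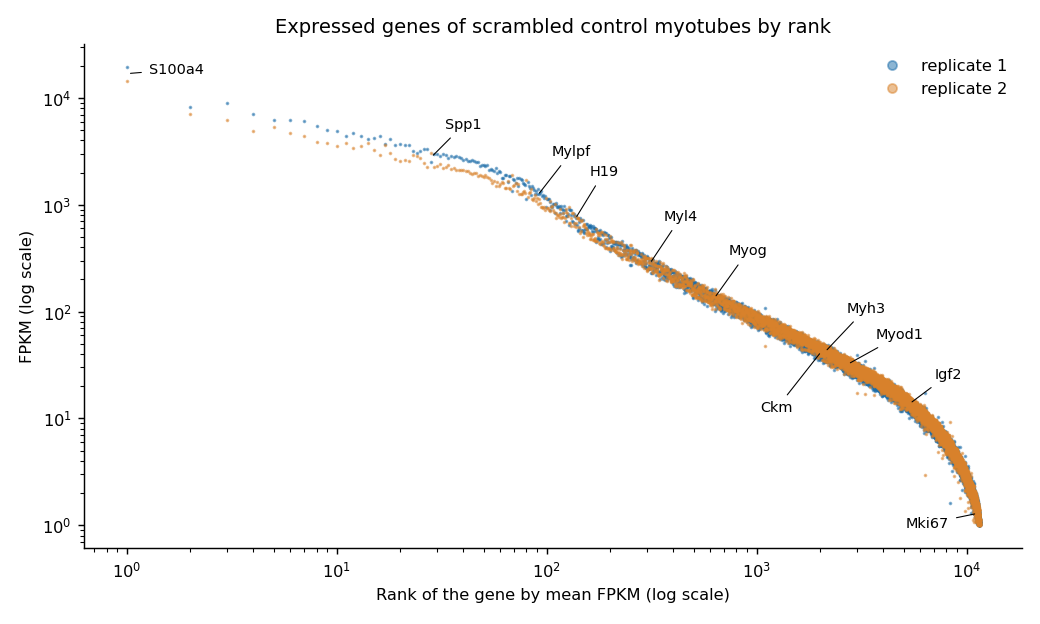
FPKM of each of the 11535 ranked genes in replicate 1 (blue) and replicate 2 (orange) against the gene's rank by mean FPKM, both axes on a log scale. S100a4 holds the first rank, the markers H19, Myl4, Myog, Ckm and Myh3 lie between ranks 136 and 2103, and replicate 1 lies above replicate 2 at the highest ranks.

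Most markers of other cell types are not listed, and nothing about their expression follows from that. Of 8 endothelial markers 1 was listed, Vwf at 0.639 and 0.630 FPKM, and of 8 epithelial markers 1 was listed, Krt14 at 0.429 and 0.327 FPKM, both under the minimum, so these lists could hardly be assessed. Summed FPKM was 4.56 and 3.53 for leukocyte, 6.0 and 6.31 for adipocyte and 6.21 and 6.39 for cardiomyocyte markers, with 4 listed and 2 expressed genes in each list. The lists with a high member were those of neurons, osteoblasts and smooth muscle. Stmn2, a microtubule-destabilising protein best known from neurons, was at 69 and 71.1 FPKM, while the neurofilament genes Nefl and Nefm were under the minimum. Spp1, the matrix phosphoprotein osteopontin, was at 2489.9 and 3028 FPKM, while the bone gene Bglap was at 0.525 and 0.894 FPKM. Acta2, the smooth muscle actin that immature skeletal muscle also makes, was at 576 and 711 FPKM, and Tagln at 49.9 and 49.4 FPKM. In all, 2 of 4 listed neuron markers, 4 of 5 listed osteoblast markers (the bone factor Runx2 at 6.45 and 6.38 FPKM among them) and 5 of 6 listed smooth muscle markers were expressed. The part of other cell types in the muscle gene levels was not tested. Of 13 listed markers of reserve cells and undifferentiated myoblasts, 12 were expressed (84.3% over all listed symbols). The inhibitory helix-loop-helix gene Id3 was highest (72.4 and 74.7 FPKM), and Pax7 and Pax3 are not analysed here.

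Among the listed sarcomeric myosin heavy chains, the embryonic form far exceeded the others. Myh3 was at 41.5 ± 4.64 FPKM (SD, n = 2), and it was the 1 expressed gene of 4 listed. The adult fast chain Myh1 was at 0.249 and 0.638 FPKM, the slow chain Myh7 at 0.322 and 0.401 FPKM, and Myh7b at 1.21 and 0.728 FPKM. All 3 lay far under Myh3 in both libraries, and the remaining 6 sarcomeric chains of the list, among them Myh2, Myh4 and the neonatal Myh8, are not analysed here. The non-muscle heavy chain Myh9 stood above Myh3, at 51.8 and 67.4 FPKM, with Myh10 at 4.25 and 5.63 FPKM. The embryonic chain was thus lower per kilobase than the commonest non-muscle chain in both libraries.

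The light chains Mylpf, Myl4 and Myl1 exceeded every listed sarcomeric heavy chain, whereas Myl6b, a light chain also of slow muscle, lay below Myh3. Mylpf, the fast regulatory light chain, was the highest muscle gene of the light chain list, at 1263 and 1159 FPKM (mean 1211 ± 73.4) and rank 90. It was followed by Myl6, the light chain of non-muscle myosin (958 and 973 FPKM), and Myl12a, a non-muscle regulatory light chain (587 and 607 FPKM). The essential chains Myl4 (267 and 288 FPKM) and Myl1 (215 and 201 FPKM) came next, then Myl12b at 154 and 149 FPKM. Myl4 was above Myl1 in both libraries, but the lower of the 2 ratios lay within the spread between libraries. Myl9 was at 103 and 113 FPKM and Myl6b at 33.1 and 37.7 FPKM. The kinases that phosphorylate the regulatory chain were low, with Mylk at 2.37 and 2.71 FPKM, Mylk2 at 1.27 and 1.15 FPKM and Mylk4 at 0.240 and 0.258 FPKM. The cardiac and slow chains Myl2, Myl3 and Myl7 are not analysed here. Of the top transcript of Myl6, 38.3% of 50-base windows recur in a listed transcript of Gm10080 and 20.6% of those of Myl12a recur in Myl12b, so reads may be split there.

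Among actins, the cytoplasmic and smooth muscle forms exceeded the cardiac one. Actb was at 704 and 918 FPKM, Actg1 at 698 and 830.5 FPKM and Acta2 at 576 and 711 FPKM, and these 3 ranges overlapped, with Acta2 the lowest of them in each library. Actc1, the cardiac alpha-actin that developing skeletal muscle uses, was at 229 and 260.5 FPKM, below all 3 in both libraries. Actg2 was the lowest, at 24.4 and 28.6 FPKM, and the skeletal alpha-actin Acta1 is not analysed here. The top transcripts of Actc1 and Acta2 share none of their 50-base windows with each other. Of the windows of Actg1, however, 42.9% recur in other genes, 35.6% in Gm8399, so the value of Actg1 is uncertain. Of those of Actb, 9.57% recur in Lrrc58, so reads may be split there too. For Acta2 the share in other genes was 0.352%, and no window of Actc1 or Actg2 recurs in another gene.

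All 3 troponin subunits were present in slow or cardiac and in fast form together. Troponin C, the calcium sensor, was led by the slow and cardiac Tnnc1 (452 and 444 FPKM) over the fast Tnnc2 (177 and 184 FPKM). Troponin I, the inhibitory subunit, had the slow Tnni1 at 246 and 231 FPKM and the fast Tnni2 at 172 and 155 FPKM, with the cardiac Tnni3 at 1.957 and 1.26 FPKM. Troponin T, which anchors the complex to tropomyosin, was spread over the cardiac Tnnt2 (235 and 269 FPKM), the fast Tnnt3 (181 and 194 FPKM) and the slow Tnnt1 (171 and 179 FPKM). The order Tnnc1 first and Tnni3 last held in both libraries, whereas Tnnt3, Tnnc2, Tnnt1 and Tnni2 lay next to each other between 155 and 194 FPKM. Of the 8 troponin genes, 7 were above 100 FPKM, where 851 of all 11535 ranked genes (7.38%) were at 100 FPKM or more.

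Tropomyosins, the coiled coils along the actin filament, formed a group of 4 abundant genes. Tpm2 was at 479.7 and 538 FPKM and Tpm1 at 439 and 531 FPKM, with overlapping ranges, followed by Tpm4 at 304 and 350.3 FPKM and Tpm3 at 117 and 131 FPKM. The value of Tpm3 is uncertain, since 66.8% of the windows of its top transcript recur in Tpm3-rs7. Proteins that cap or nucleate the pointed end of thin filaments were far lower. Tmod3, the broadly expressed tropomodulin, was at 9.53 and 12.6 FPKM, Lmod3 at 5.84 and 7.25, Lmod2 at 3.53 and 5.33 and the muscle form Tmod4 at 1.89 and 1.88 FPKM. Tmod1 (0.690 and 0.517 FPKM) and Lmod1 (0.350 and 0.426 FPKM) were under the minimum.

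**Figure D2:**
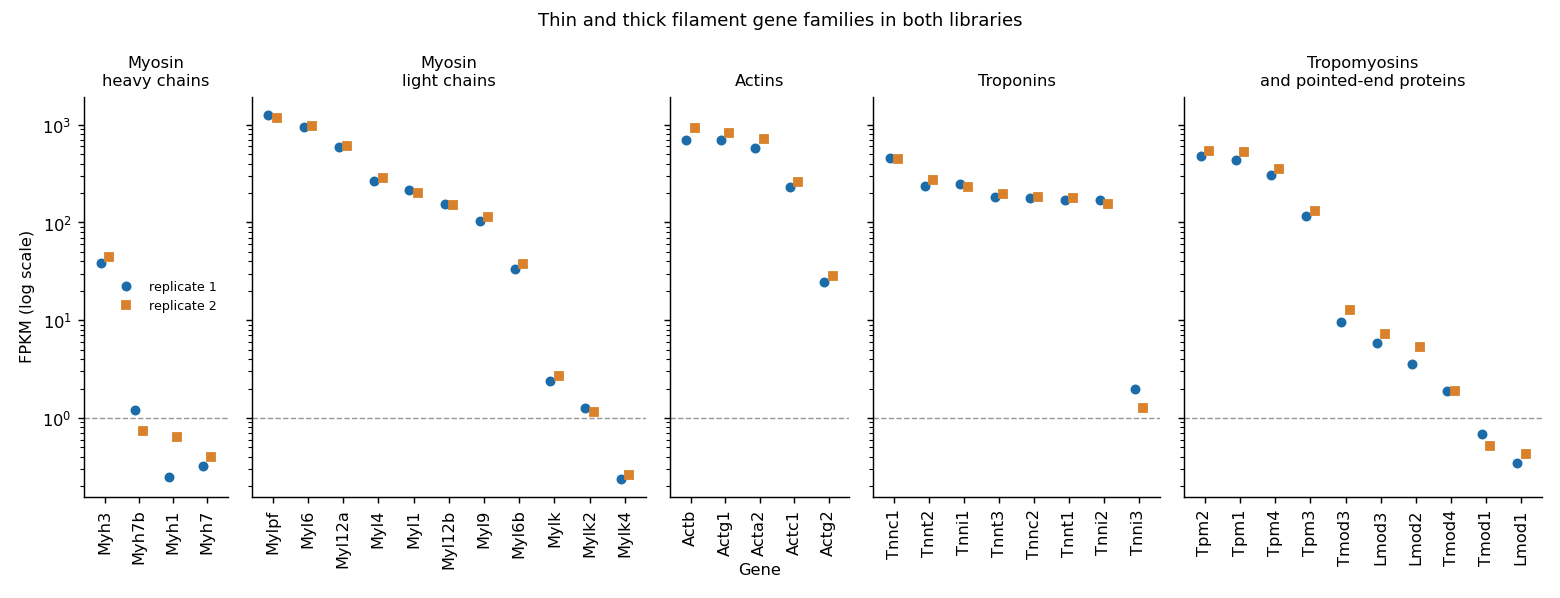
FPKM on a log scale of every listed gene of 5 filament families in replicate 1 (blue circles) and replicate 2 (orange squares), ordered within a family by mean, with the minimum of 1 FPKM dashed. Among listed sarcomeric myosin heavy chains only Myh3 is above the minimum in both libraries, at 38.3 and 44.8 FPKM. By contrast, 7 of 8 troponins lie above 100 FPKM, where 7.38% of all ranked genes are at 100 FPKM or more.

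Exon choice within these genes was read from listed transcripts that hold 1 exon or the other of a mutually exclusive pair. Such a pair has the same neighbouring exon ends, both exons are wholly coding, and no listed protein-coding transcript holds both. The search found 80 pairs in 77 ranked genes, and the median difference of an exon's share between the libraries was 2.27 percentage points. The genes named in these paragraphs were chosen from the pairs after their values were seen. The first are 2 thin filament genes, whose alternative exons are printed because they separate fetal from adult or non-muscle from muscle protein. Exons were taken from the GENCODE M21 transcripts on GRCm38, 5′ to 3′ on the coding strand, and capitals mark positions that differ between the exons of a pair.
Tnnt3 upstream exon (16, alpha): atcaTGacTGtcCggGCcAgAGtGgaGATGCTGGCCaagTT
Tnnt3 downstream exon (17, beta): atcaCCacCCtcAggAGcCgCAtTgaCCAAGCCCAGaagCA
Tpm2 upstream exon (6a): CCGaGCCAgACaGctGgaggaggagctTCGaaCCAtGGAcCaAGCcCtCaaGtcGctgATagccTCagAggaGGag
Tpm2 downstream exon (6b): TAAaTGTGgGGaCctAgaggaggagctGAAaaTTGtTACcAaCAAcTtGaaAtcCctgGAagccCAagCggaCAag

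Tnnt3 mRNA carried the fetal exon almost throughout. The upstream alpha exon (chr7:142513665-142513705, plus strand, 41 bases) enters the adult fast troponin T, and the downstream beta exon (chr7:142514326-142514366) the fetal one. Transcripts with the beta exon held 99.8% and 99.3% of the FPKM that carries either exon, and those with the alpha exon 0.199% and 0.658%. The alpha exon was in 1 listed transcript and the beta exon in 10, and only 43.9% of positions are identical between the exons. In Tpm2 both exons were in use. The skeletal muscle exon 6b (chr4:43518644-43518719, minus strand, 76 bases) held 63.7% and 62.7%, and exon 6a of smooth muscle and non-muscle cells (chr4:43519003-43519078) held 36.3% and 37.3%. These exons share 53.9% of positions. Tpm1 was more one-sided, with 96.5% and 97.1% in the downstream exon of the corresponding pair (chr9:67031951-67032026, minus strand). Tpm3 was the opposite, with 87.3% and 87.4% in its upstream exon (chr3:90088401-90088476, plus strand).

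In 3 metabolic and regulatory genes the exon of non-muscle or unspecialised cells held the larger share. The next exons belong to Pkm, Mef2d and Slc25a3 and are shown because 1 form of each is known from differentiated muscle.
Pkm upstream exon (M1): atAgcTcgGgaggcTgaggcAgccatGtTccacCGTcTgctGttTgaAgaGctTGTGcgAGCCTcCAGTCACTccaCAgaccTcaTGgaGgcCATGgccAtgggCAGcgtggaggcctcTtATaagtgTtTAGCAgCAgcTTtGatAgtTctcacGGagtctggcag
Pkm downstream exon (M2): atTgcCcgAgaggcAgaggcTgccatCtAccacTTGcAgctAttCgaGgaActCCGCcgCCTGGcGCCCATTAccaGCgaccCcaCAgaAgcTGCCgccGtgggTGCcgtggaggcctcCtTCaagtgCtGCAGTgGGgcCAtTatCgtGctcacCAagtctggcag
Mef2d upstream exon (alpha1): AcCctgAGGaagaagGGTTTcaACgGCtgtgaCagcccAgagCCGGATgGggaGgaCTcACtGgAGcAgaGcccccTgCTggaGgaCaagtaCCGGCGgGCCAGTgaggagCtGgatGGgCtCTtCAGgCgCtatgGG
Mef2d downstream exon (alpha2): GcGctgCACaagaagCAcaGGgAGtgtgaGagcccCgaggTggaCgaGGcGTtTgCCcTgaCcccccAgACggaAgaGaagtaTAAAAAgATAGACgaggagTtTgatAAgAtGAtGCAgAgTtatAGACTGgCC
Slc25a3 upstream exon (A): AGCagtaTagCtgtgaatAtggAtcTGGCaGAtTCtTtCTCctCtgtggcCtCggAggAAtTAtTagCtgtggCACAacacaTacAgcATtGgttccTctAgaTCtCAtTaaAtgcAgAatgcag
Slc25a3 downstream exon (B): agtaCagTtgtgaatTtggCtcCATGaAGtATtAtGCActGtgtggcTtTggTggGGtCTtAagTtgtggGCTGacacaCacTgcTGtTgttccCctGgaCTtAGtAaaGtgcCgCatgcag

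Pkm encodes pyruvate kinase, and its exons of 167 bases give the muscle enzyme M1 or the enzyme M2 of proliferating cells. The M2 exon (chr9:59675568-59675734, plus strand) held 82.2% ± 1.19 (SD, n = 2) and the M1 exon (chr9:59675029-59675195) 17.8% ± 1.19 of the gene's FPKM, with M2 at 81.4% and 83% in the libraries. In Mef2d, a MEF2 transcription factor gene, the alpha1 exon (chr3:88158034-88158171, plus strand, 138 bases) held 92.4% and 90%. The muscle-type alpha2 exon (chr3:88158221-88158355, 135 bases), present in 1 listed transcript, held 7.62% and 10%. In the paralogue Mef2a the upstream exon of the pair (chr7:67268269-67268400, minus strand, 132 bases) held 78.5% and 80.3%. Slc25a3, the mitochondrial phosphate carrier, has exon A (chr10:91122207-91122331, minus strand) in heart and skeletal muscle and exon B (chr10:91121922-91122043) elsewhere. Exon B held 72.3% and 72.3%, but transcripts with either exon covered only 57.9% and 61.8% of this gene's FPKM. The exons of Pkm, Mef2d and Slc25a3 are identical at 61.7%, 53.6% and 61.6% of positions after alignment.

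**Figure D3:**
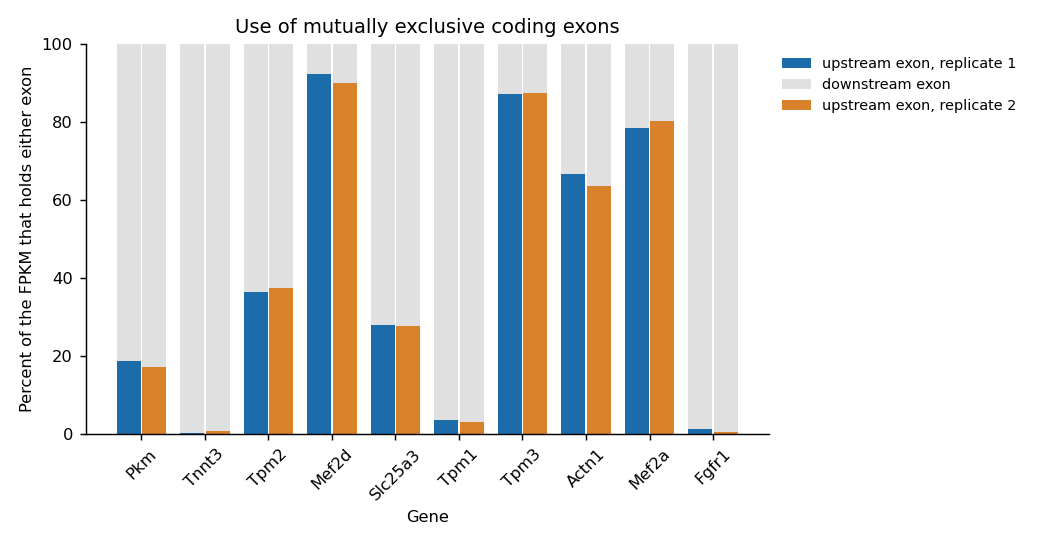
Percent of the FPKM carrying either exon that belongs to the upstream exon (blue, replicate 1; orange, replicate 2) or the downstream exon (grey) in 10 genes. Tnnt3, Tpm1 and Fgfr1 lie near 0% for the upstream exon, Pkm at 18.6% and 16.95%, and Mef2d at 92.4% and 89.99%.

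Other pairs gave both one-sided and mixed use. Fgfr1, a fibroblast growth factor receptor, carried its mesenchymal exon IIIc (chr8:25564340-25564484, plus strand) in 98.8% and 99.5% and the epithelial exon IIIb in 1.15% and 0.462%, although these transcripts covered 59.3% and 71.6% of its FPKM. Actn1, a non-muscle alpha-actinin of stress fibres, had 66.7% and 63.7% in its upstream exon (chr12:80170686-80170766, minus strand, 81 bases) and the rest in the downstream exon of 66 bases. Over all 80 pairs, the upstream exon held at least 90% in both libraries in 9 and the downstream exon in 11. The exon above 50% was the same in both libraries except in 2 pairs, being upstream in 35 and downstream in 43. Of 31 pairs in genes at 30 FPKM or more, 2 differed by over 10 percentage points between the libraries, and of all 80 pairs, 9 did.

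Forms taken as developmental were compared with forms taken as adult over 18 pairs of paralogues, of which 11 had both genes listed. In the troponin, calsequestrin and calcium pump pairs these are slow or cardiac forms against fast ones. Those pairs do not separate stage from fibre type. A pair was called only where both libraries gave the same side and the smaller fold difference exceeded the spread, the 95th percentile of the fold difference between the libraries among expressed genes in the level class of the lower gene (1.36 to 1.502). This spread is that of the same gene between the libraries. It does not cover an error that a gene carries in both, as from unlisted transcripts or shared sequence. No class was formed under 1 FPKM, so a lower gene there took the limit of the class from 1 to 3 FPKM, and its own spread can be wider, as for Myh1. The form taken as developmental was higher in 7 pairs, the form taken as adult in 2, and 2 lay within the spread. Myh3 is the first gene of both myosin heavy chain pairs called, so the pairs are not all separate genes. The widest gaps were those of Myh3 over Myh7, by 119 and 112 times, and over Myh1, by 154 and 70.2 times, although the lower genes were under 1 FPKM. Myf5 exceeded Myf6, the factor of adult fibres, by 47.7 and 58 times. Casq2, the cardiac and early calsequestrin that buffers stored calcium, exceeded Casq1, the form taken as adult, by 11.4 and 11.1 times. Narrower gaps separated Tnnc1 from Tnnc2 (2.55 and 2.41 times) and Tnni1 from Tnni2 (1.43 and 1.49 times).

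The form taken as adult led in the calcium pump and the calcium release channel. Atp2a1, the fast muscle pump SERCA1, was at 43.7 and 54.6 FPKM and Atp2a2 at 24.9 and 33.6 FPKM, a gap of 1.75 and 1.63 times. Ryr1 was at 1.40 and 1.40 FPKM and Ryr3, under the minimum, at 0.519 and 0.512 FPKM, but the principal transcript of Ryr3, the isoform that GENCODE marks as representative, was not listed. Myl4 against Myl1 (1.24 and 1.43 times) and Tnnt2 against Tnnt3 (1.30 and 1.39 times) lay within the spread. With the top transcript of each gene alone, Myl4 and Tnnt2 were both called higher and Tnni1 against Tnni2 fell within the spread. With protein-coding transcripts alone, Myl4 was called and Ryr3 could not be assessed. The 7 remaining pairs, such as Actc1 with Acta1 and Chrng with Chrne, are not analysed here.

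**Figure D4:**
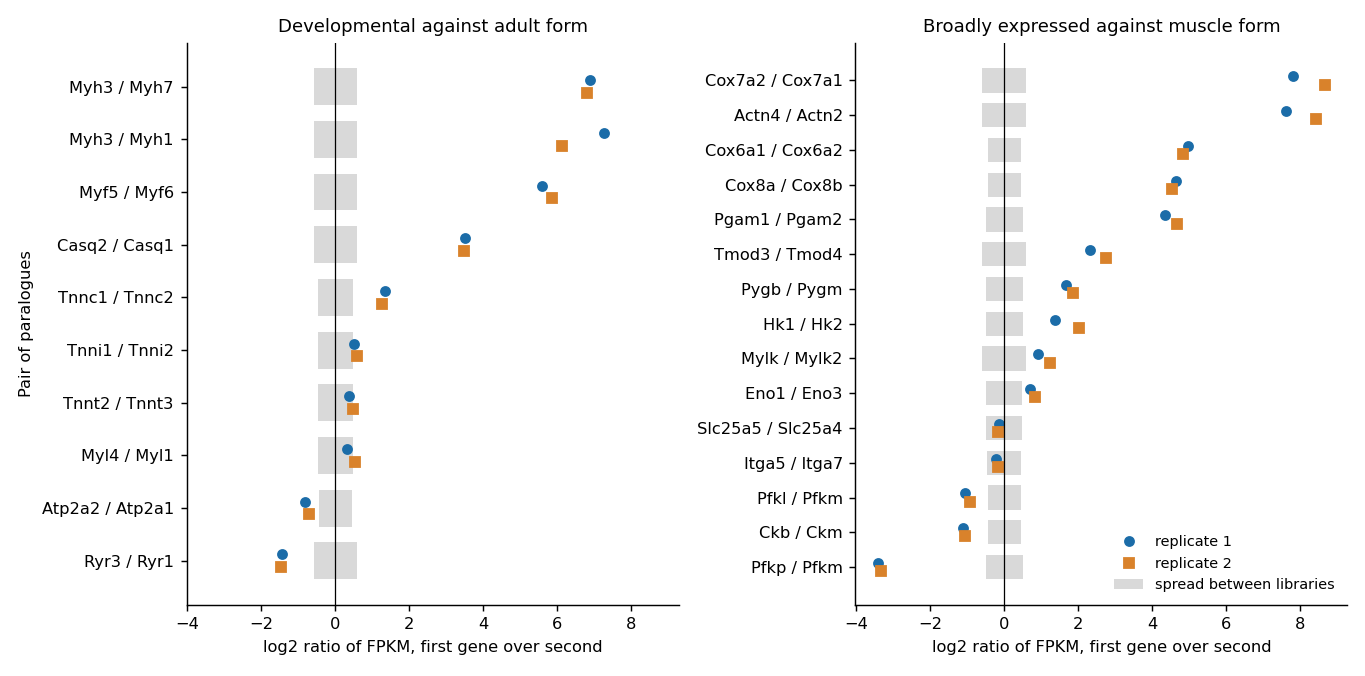
The log2 ratio of FPKM within pairs of paralogues in replicate 1 (blue circles) and replicate 2 (orange squares), with the spread between libraries as a grey band. Points to the right are pairs with the first gene higher: Myh3 over Myh1 and Myh7 lies far beyond the band, Atp2a1 over Atp2a2 beyond it on the left, and Myl4 with Myl1 at its edge.

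A second set of 21 pairs set a broadly expressed enzyme or structural protein against its muscle-type relative, and 16 had both genes listed. The broad form was higher in 11, the muscle form in 3, and 2 lay within the spread. Pfkm is the muscle gene of both phosphofructokinase pairs called, so the pairs are not all separate genes. Cytochrome oxidase subunits were strongly on the broad side. Cox6a1 (356 and 343 FPKM) exceeded Cox6a2 (11.4 and 12.1 FPKM) by 31.2 and 28.4 times, Cox8a exceeded Cox8b by 25.1 and 23.2 times, and Cox7a2 exceeded Cox7a1, itself just outside the minimum in replicate 2, by 223 and 407 times. Actn4 exceeded the Z-disc alpha-actinin Actn2, under 1 FPKM in both libraries, by 195 and 345 times. The phosphoglycerate mutase Pgam1 exceeded Pgam2 by 20.4 and 25.6 times. Smaller gaps were those of the tropomodulins Tmod3 over Tmod4 (5.03 and 6.70 times), the glycogen phosphorylases Pygb over Pygm (3.16 and 3.63 times), the hexokinases Hk1 over Hk2 (2.59 and 4.04 times), and the kinases Mylk over Mylk2 (1.88 and 2.35 times). Hk1 has no principal transcript listed, and Mylk over Mylk2 fell within the spread on ratios of FPKM + 1.

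Energy enzymes were thus divided between broad and muscle forms. The muscle form led for phosphofructokinase, with Pfkm at 34.3 and 42.4 FPKM against Pfkl at 16.4 and 22.2 and Pfkp at 3.22 and 4.205 FPKM. It also led for creatine kinase, where Ckm exceeded Ckb by 2.16 and 2.10 times even though the principal Ckm transcript was not listed. The enolases were close to each other, with Eno1 at 357 and 446 FPKM, Eno3 at 219 and 251 FPKM and a gap of 1.63 and 1.78 times, but 66.3% of the windows of Eno1 recur in Gm5506. Slc25a5 and Slc25a4, the mitochondrial ADP/ATP carriers, lay within the spread (232 and 240.2 against 254 and 270.3 FPKM), as did the integrins Itga5 and Itga7 (36.2 and 43.5 against 42.6 and 49.2 FPKM). Glycolytic genes were among the most abundant of the list. Aldoa, the aldolase of muscle, was at 582 and 749 FPKM, Pkm at 451 and 594 FPKM and the lactate dehydrogenase Ldha at 339.7 and 440.1 FPKM. Of 39 listed enzyme genes, 38 were expressed (84.3% over all listed symbols), with a median of 42.4 FPKM. Mb, myoglobin, was at 21.2 and 21.4 FPKM.

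Transcription factors of the myogenic programme were expressed with myogenin in front. Myog was at 132 ± 8.75 FPKM, Myod1 at 32 ± 1.30 FPKM and Myf5 at 13.1 ± 0.682 FPKM (SD, n = 2 each), an order that held in both libraries. Myf6 was at 0.264 and 0.234 FPKM. The helix-loop-helix partners Tcf4 (33.9 and 40.1 FPKM), Tcf12 (23.1 and 28.8 FPKM) and Tcf3 (23.8 and 26.9 FPKM) were at similar levels. Id3, which blocks such partners, was above all 3. Among MEF2 genes, Mef2d (30.2 and 32.5 FPKM) and Mef2a (25.8 and 32.2 FPKM) overlapped. Mef2c was at 0.400 and 0.533 FPKM over its listed transcripts, but no principal transcript of this gene was listed. TEAD factors ranged from Tead2 (22.4 and 23.8 FPKM) over Tead1 (10.1 and 12.3) to Tead3 (6.93 and 8.40) and Tead4 (6.94 and 7.83 FPKM). Other members were Id2 (23.7 and 21.2 FPKM), Id1 (19.5 and 17.8), Eya1 (15.4 and 18.4), Eya4 (8.21 and 9.87), Six4 (6.33 and 5.94) and the serum response factor gene Srf (7.88 and 8.64 FPKM). Of 22 listed factor genes, 20 were expressed, where 84.3% of all listed symbols were.

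The acetylcholine receptor, the ion channel through which nerve excites muscle, was expressed with its fetal gamma subunit. Chrna1, the agonist-binding alpha subunit, was at 66.7 and 86.2 FPKM, and Chrng, the fetal gamma subunit, at 55 and 57.1 FPKM. Chrnb1 (38.2 and 39.1 FPKM) and Chrnd (36.5 and 38.7 FPKM) lay lower and close to each other. The adult epsilon subunit Chrne is not analysed here. Rapsn, the scaffold that clusters receptors, was the highest gene of the list at 101 and 119 FPKM. The receptor kinase Musk (8.13 and 9.63 FPKM), its co-receptor Lrp4 (5.0 and 5.68 FPKM), its adaptor Dok7 (3.17 and 3.36 FPKM) and the ligand Agrn (13.8 and 14.7 FPKM) were all lower than any receptor subunit. Nes, an intermediate filament gene of immature muscle, was at 50.5 and 55.4 FPKM, whereas the esterase Ache (0.596 and 0.762 FPKM) and its anchor Colq (0.963 and 1.01 FPKM) missed the minimum.

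Calcium handling and structural genes spread over a wide range. Bin1, which bends membranes into transverse tubules, was highest of its list at 103 and 124 FPKM, followed by the channel subunit Cacng1 (53.8 and 65.5 FPKM) and the reticulum protein Srl (40.4 and 48.7 FPKM). Cacna1s, the voltage sensor, was at 2.87 and 2.61 FPKM without its principal transcript, and the junction proteins Jph2 (15.3 and 16.6 FPKM) and Stac3 (9.13 and 9.89 FPKM) lay between. Of 22 listed calcium genes, 20 were expressed, where 84.3% of all listed symbols were. Among thick filament, M-band and Z-disc genes, Des, the intermediate filament desmin, led at 225 and 248 FPKM and the chaperone Cryab followed at 116 and 125 FPKM. Ankrd1, a stretch-responsive repeat protein, was at 75.8 and 94.8 FPKM without its principal transcript, and Mybph at 53.5 and 65 FPKM. The giant proteins were low, with Ttn at 2.56 and 3.40 FPKM and Neb at 1.74 and 2.13 FPKM, both without a principal transcript, so their levels cover other transcripts alone. Of 27 listed genes of this group, 23 were expressed, near the share over all listed symbols. Their median was 12.7 FPKM, close to the median of all ranked genes.

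Both membrane proteins that drive myoblast fusion were expressed. Tmem8c, the gene of myomaker, was at 86.6 and 110.3 FPKM and Gm7325, the gene of myomixer, at 48.4 and 42.5 FPKM. The tetraspanins Cd9 (338 and 378 FPKM) and Cd81 (138 and 179.9 FPKM) and the integrin Itgb1 (133 and 199 FPKM) were higher. Dag1, the dystroglycan gene, was at 36.7 and 56 FPKM, Ncam1 at 18.5 and 28.3 FPKM and Cdh2 at 18.2 and 27.2 FPKM. Of 23 listed fusion and adhesion genes, 20 were expressed, where 84.3% of all listed symbols were. Another 5, Dmd and Cdh15 among them, are not analysed here.

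Inhibitors of the cell cycle list ranged from abundant to low, and the proliferation genes named here lay below the highest of them. Cdkn1a, the inhibitor p21, was at 171 and 189 FPKM, Gadd45a at 113 and 122 FPKM and Cdkn1b, the inhibitor p27, at 60.5 and 56 FPKM. Ccnd3, the D cyclin kept in myotubes, was at 46.6 and 56.7 FPKM, against Ccnd1 at 5.85 and 6.89 FPKM and Ccnd2 at 2.80 and 3.27 FPKM. Proliferation genes were low but present, with Mki67 at 1.27 and 1.32 FPKM, Top2a at 6.07 and 8.59 FPKM, Ccnb1 at 5.56 and 5.98 FPKM and Cdk1 at 18.9 and 18.6 FPKM. Pcna, the sliding clamp of replication, was higher at 38.6 and 43.9 FPKM. None of these 5 reached Cdkn1a, Gadd45a or Cdkn1b in either library, but Cdkn2c (15.9 and 13.4 FPKM), Gadd45g (20.9 and 20.4 FPKM) and Gadd45b (7.55 and 7.15 FPKM) were below Pcna. Cdk4 was at 332 and 365 FPKM, but its top transcript is annotated for nonsense-mediated decay and held 25.7% of that sum in each library.

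The 100 highest genes held 43.1% and 37.3% of summed FPKM, a mean of 40.2% ± 4.08 (SD, n = 2). S100a4, a small calcium-binding protein of motile cells, ranked first at 19537 and 14263 FPKM, with 98.8% of it from 1 transcript in each library. The translation-linked gene Tpt1 (8258 and 7133 FPKM) was second, and the ribosomal protein genes Rps12 (8924 and 6240.5 FPKM) and Rps24 (7043 and 4943 FPKM) followed. Rps12 and Rps24 have no principal transcript listed, and 85.7% and 52.7% of their windows recur in other genes. Fth1, the heavy chain of ferritin, was at 6228 and 5294 FPKM. Ranks 6 to 13 were Rpl41, Rpl17, Rpl32, Gm9846, Rps15a, Rpl10, Rpl34 and Rplp1, between 3386 and 6263 FPKM. Lgals1, galectin-1, had rank 14 at 4112 and 3781 FPKM, and Rps21, Rpl13a, Ftl1, Rps14, Rpl12 and Rps27a completed the 20 highest. Gm9846 shares 89.8% of its windows with Rps27 (3353 and 2472 FPKM), so the division between them is uncertain. Over the 20 highest genes, the windows that recur in other genes ran from 0%, as in Rpl32, to 96.3% in Rpl10. Levels and ranks are uncertain where this share is high. Ribosomal protein genes, a family counted after values were seen, made up 67 of the 100 highest and 30.1% and 25.3% of summed FPKM. Spp1 and the genes Lgals1, Sparc (1344 and 1907 FPKM) and Bgn (1127 and 1695 FPKM) of the matrix list were in the highest 100, while Mylpf was the only gene of the filament lists there.

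Matrix genes formed another abundant group. Of 31 listed genes of the matrix and collagen list, 27 were expressed, where 84.3% of all listed symbols were. The median of the 27 was 91.2 FPKM against 11.8 FPKM over all ranked genes. Col3a1, a fibrillar collagen, was at 640.1 and 963 FPKM, Fn1, fibronectin, at 275 and 420.4 FPKM and the inhibitor of metalloproteases Timp2 at 333 and 431 FPKM. The proteoglycan decorin, Dcn, was at 202 and 283 FPKM. The list also holds Vim, vimentin, a cytoskeletal filament protein of mesenchymal cells, at 890.0 and 1091 FPKM. Each of these 5 was higher in replicate 2, as were 25 of the 27, against 7630 of all 11535 ranked genes.

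The 5 highest long non-coding genes were led by RP23-81C12.3 (ENSMUSG00000098178, chromosome 17, 39846958 to 39848788, plus strand) at 2223 and 1491 FPKM. In GENCODE M21 a ribosomal RNA gene on the opposite strand (chromosome 17, 39846353 to 39848827) covers its locus, and no use of strand was stated, so their reads cannot be told apart. H19 came second. Next were 1500012F01Rik at 545 and 392 FPKM, whose locus holds 3 annotated snoRNAs, and Gm10076 at 445 and 364 FPKM, which shares 69.9% of its windows with Rpl41. Neat1, the scaffold RNA of paraspeckles, was at 425 and 345 FPKM, of which its short transcript held 94.99% and 94.98% and the long one 2.26% and 2.33%. In H19, transcript H19-202 held 93.2% and 91.8%. Igf2, the imprinted growth factor gene beside H19, was at 12.8 and 14.4 FPKM. Among other imprinted genes Peg3 was at 27.4 and 31.5 FPKM, Gnas at 199 and 259.8 FPKM, Igf2r at 3.22 and 4.71 FPKM and Sgce at 9.98 and 14 FPKM. Of the sum of Gnas, 48.6% and 46.5% came from a retained-intron transcript of 480 bases. A processed one of 607 bases gave 43% and 45.6%. Of 12 listed imprinted genes, 9 were expressed, where 84.3% of all listed symbols were.

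Most genes with several listed transcripts had a dominant one. Of 6879 ranked genes with at least 2 listed transcripts, 5260 (76.5%) had a top transcript with at least 50% of the gene's FPKM, and 1230 (17.9%) one with at least 90%. The median share was 67.3%. The top transcript differed between the libraries in 540 genes (7.85%). The highest of these were Eif4a2, Psma3, Ifi27l1, Pigp and Srsf11. In Pigp the 2 leading transcripts held 48.6% and 44.4% in replicate 1 and 46.3% each in replicate 2. The leading transcripts of Pigp were thus nearly tied.

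Contractile genes differed in how many transcripts shared their output. Tnnc2-201 held 99.2% and 99.5% of Tnnc2, Mylpf-201 held 98.2% and 98.6% of Mylpf, Tnnc1-202 held 94.1% and 94.9% of Tnnc1, and Myl4-202 held 85.3% and 88.8% of Myl4. Tnnt3 lay at the other end, with 13 listed transcripts and a top share of 18.5% and 20.6%. Tnnt1 had 11 transcripts and a top share of 31.0% and 29.1%. The top transcript of Tpm1 held 40.5% and 47.3%. Bin1-202 held 98.1% of Bin1 in each library. Apart from Mylpf these genes were chosen after their values were seen. Among the highest genes of the lists, Col3a1-201 held 99.9% of its gene in each library, Actb-201 held 88.2% and 90.6%, and Sparc was divided between Sparc-202 (51.6% and 51.2%) and Sparc-201 (48.0% and 48.5%).

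In 779 of 6787 genes (11.5%) whose top transcript was found in the annotation, that transcript was not protein-coding. Of 6671 protein-coding genes with at least 2 listed transcripts, 601 had a top transcript of another type, with a retained intron in 240, a processed transcript in 213 and a target of nonsense-mediated decay in 145. The highest were Tpt1, Rpl12, Ppia, Rps20 and Rpl35. In Tpt1 a processed transcript held 63% and 65.3%, and Rps20-201, annotated with a retained intron, held 93.6% of Rps20 in each library. For Gapdh, the glycolytic enzyme often used as a reference, Gapdh-206 with a retained intron held 47.3% and 45.9% and the listed principal transcript 6.28% and 7.84% of 277 and 323 FPKM. Gapdh was chosen after its values were seen, and 60.7% of the windows of its top transcript recur in other genes. These top transcripts are shorter than the highest protein-coding one of the gene. The lengths are 565 against 1420 bases in Gapdh, 582 against 3706 in Rps20 and 661 against 1169 in Tpt1. The part of length and of shared sequence in these shares was not tested, so they do not show how much of the mRNA is non-coding. Of 10465 ranked genes with a principal transcript in the annotation, 602 (5.75%), Ckm among them, had none listed, and their levels cover other transcripts alone.

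The libraries differed from each other in relation to transcript length. Among genes whose top transcript is 300 to 600 bases long, the median log2 difference, replicate 2 minus replicate 1, was -0.24, and it was 0.23 at 8000 bases and above, against 0.11 over all ranked genes. Ribosomal protein genes, with a median top transcript of 738 bases, had a median of -0.35, and 80 of 84 were higher in replicate 1, against 3905 of all 11535 ranked genes. Matrix genes, with a median of 4722 bases, had a median of 0.47. After the median of each gene's own length class was subtracted, matrix genes were still above 0 in 26 of 27, with a median of 0.29, and ribosomal protein genes in 7 of 83, with a median of -0.19. The part of length in these differences was not otherwise tested. Of 6084 genes at 10 FPKM or more in both libraries, the 5 largest differences were those of the pseudogenes Rps19-ps1 (39.4 and 17.3 FPKM), Tpt1-ps3 (108 and 47.6 FPKM) and Gm10177 (34.6 and 16.8 FPKM), of Gm20417 (29.8 and 16.5 FPKM), and of Pcca (11.7 and 19.8 FPKM), a mitochondrial carboxylase subunit. The first 4 were higher in replicate 1, and Gm10177 shares 93.9% of its windows with Sec61g. Levels compared within a library between a short and a long gene carry this difference between the libraries, and the ratios above are given for both.

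**Figure D5:**
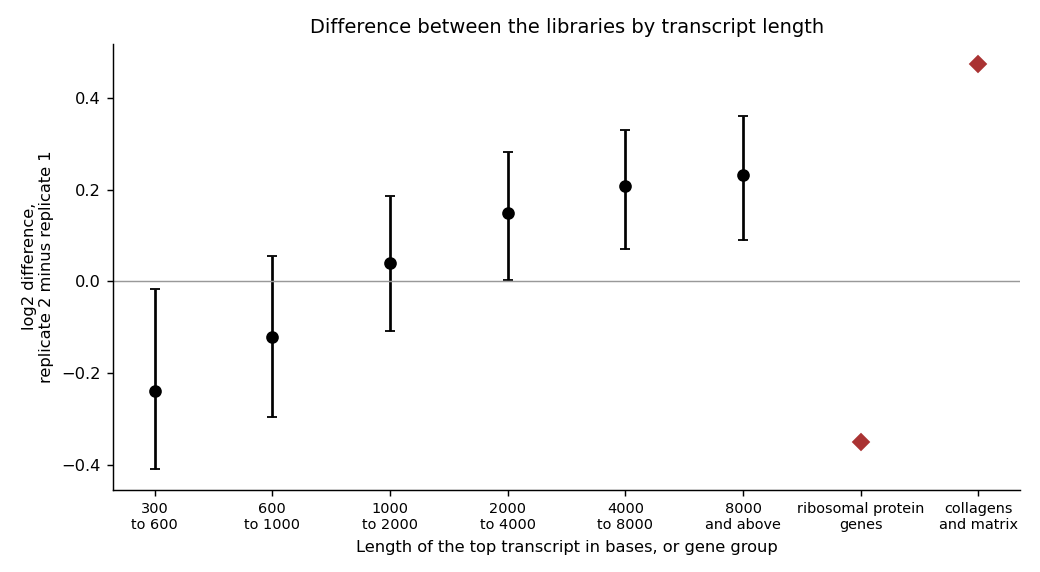
Median log2 difference in FPKM, replicate 2 minus replicate 1, by length of each gene's top transcript (black points, with bars from the lower to the upper quartile of genes), and the medians of ribosomal protein and matrix genes (red diamonds). The medians climb from -0.24 at 300 to 600 bases to 0.23 at 8000 bases and above.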

How the data were processed

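RNA from C2C12 cells was sequenced, and the 2 libraries with scrambled siRNA were used. Per the file headers, the deposited values were FPKM for each Ensembl transcript, with gene symbols. The columns carry the numbers 2 and 3 for the samples whose titles are numbered 1 and 2; replicate numbers follow the titles, through the deposit's own link of file to sample. Cufflinks, TopHat, Bowtie, Trimmomatic, CASAVA and the build mm10 are listed in the submitters' processing notes. Their versions, the annotation and any use of strand were not given in the sources used here. No read totals were used, so depth is unknown and no counting interval could be given. Estimated transcript shares depend on how the estimator divides reads between overlapping transcripts and near-identical genes, so reads of overlapping or antisense genes cannot be told apart.

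FPKM was summed per symbol with Python 3.11.15 and pandas 2.3.3. Of 36231 listed transcripts, 35238 (97.3%) were found in GENCODE M21 (GRCm38), which gave types, lengths, exons and principal tags. A gene was called short where all its transcripts were of a small RNA type or under 300 bases; transcripts not found there were judged by their locus span and symbol. Sharing between genes was measured as exact 50-base windows of the top transcript. In 18 symbols a spreadsheet had left a date, and 36 symbols covered 2 gene identifiers. Exon pairs were aligned with Biopython 1.88. The rule for calling pairs was run on simulated data, but only for pairs drawn above 3 FPKM and with a wide gap or none. That run says nothing about lower genes or narrow gaps, and no call rests on it. SD is over n = 2, no test was made, and a comparison of 2 libraries against 2 could not go below an exact two-sided p of 0.333. Values of a few named genes are left out here, but 2 pairs with such genes stay in the pair counts and are not drawn.

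The genes and lists were chosen with earlier results of these data known. Named were the 5 markers, all genes of the pairs, the filament, receptor and factor lists, up to 8 highest genes of each other list, the 20 highest genes, the 5 highest long non-coding genes, 3 genes on either side of the minimum, the 5 largest differences between libraries and, for transcripts, up to 12 list genes at 30 FPKM or more, the 5 highest genes with differing tops and the 5 highest with a non-coding top. Others were chosen after their values were seen, namely Ttn, Neb, Jph2, Stac3, Ncam1, Mb and the proliferation and D cyclin genes, together with single markers of other cell types.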

Additional observations from a re-analysis of the deposited data

How the results depend on the processing

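The number of expressed genes was 12595 at a minimum of 0.5 FPKM, 10525 at 2 and 8331 at 5, and it was between 11818 and 11836 with either library alone. Over the alternatives run, the count of forms taken as developmental above those taken as adult ranged from 7 to 8. That of broad forms above muscle forms ranged from 10 to 11. An alternative chosen after seeing the data, in which both genes needed a listed principal transcript, is included (7 of 10 and 10 of 14). Of single pairs, Myl4 with Myl1 was also called when replicate 1 was left out. Restricting transcripts to genes at 10 FPKM or more left 4152 of 6879 genes to assess. The count with a top transcript of at least 50% was then 3118 (75.1%, against 76.5% of the 6879). The count with a non-coding top was 389 (9.37%, against 11.3% of the 6879), so that share fell as well as the count. With either library alone these counts ranged from 5239 to 5358 and from 756 to 854, and the share of the 100 highest genes from 37.3% to 43.0%. That share was 99.8% when short RNA genes were kept, because Mir5105 was then included. No paired analysis was possible because only 1 group was used.

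Limits apply to all values. Depth is unknown, and 2 libraries of 1 group give a spread but no test. Levels of genes without their principal transcript, or with near-identical copies, are uncertain, as are transcript shares in genes with many listed transcripts. Genes not listed were not analysed here, and nothing about their expression follows.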

Other observations

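RNA-binding regulators of splicing, not described above, were expressed in 15 of 16 listed genes, where 84.3% of all listed symbols were. Their median was 25.7 FPKM. Hnrnpa1 (185 and 189 FPKM) and Srsf1 (148 and 144 FPKM), general factors of exon choice, were the highest. Ptbp1, which represses many muscle exons including the M1 exon of Pkm, was at 48.3 and 52.2 FPKM. Rbfox2 (33.8 and 38.5 FPKM), Mbnl1 (28.7 and 34 FPKM), Qk (27.8 and 34.7 FPKM), Celf1 (28.3 and 28.8 FPKM) and Celf2 (22.8 and 28.6 FPKM), all known to act on muscle exons, were below Ptbp1 in both libraries. Rbm24, a factor of differentiated muscle, was under 1 FPKM (0.662 and 0.885). These levels stand beside the exon shares of the same libraries as description, and no relation between them was tested.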
